A study of Mus musculus with 4 samples.

Results

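The respiratory chain and the ATP synthase of mouse liver mitochondria were examined through 92 genes of the 18193 genes with a single symbol on the array. The genes were those whose symbol in the platform annotation begins with Nduf, Uqcr, Cox4, Cox5, Cox6, Cox7, Cox8 or Atp5, together with Sdha, Sdhb, Sdhc, Sdhd, Cyc1 and Cycs. Where a gene had several probe sets, the brightest over the 4 arrays was used. Liver RNA of male mice had been hybridised to 1 Affymetrix array for each of 4 groups. These were LASS2-/- mice on high-fat diet (LASS2-/- HFD), wild-type mice on high-fat diet (WT HFD), LASS2-/- mice on standard chow (LASS2-/- chow) and wild-type mice on standard chow (WT chow). The high-fat diet supplied 60% of calories as fat and the chow 10%, both from 3 weeks of age. The labels give no age at sampling, no strain, no description of the LASS2 allele, and not the number of mice behind an array. There were therefore no replicates, and the spread between mice is unknown.

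The respiratory chain passes electrons from NADH (complex I) and succinate (complex II) through ubiquinone, complex III, cytochrome c and complex IV to oxygen, and complexes I, III and IV pump protons across the inner mitochondrial membrane. ATP synthase lets the protons return and makes ATP. Hepatocytes are rich in mitochondria and use this system for fatty acid oxidation, urea synthesis and glucose production. LASS2, now named Cers2, is a ceramide synthase with a preference for very long acyl chains, and its loss has been studied for its effect on liver mitochondria and on diet-induced fatty liver. The genes measured here are nuclear: most encode subunits, and the Ndufaf genes encode factors that help to assemble complex I.

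Of the 92 genes, 88 reached the array median on at least 1 array and entered the comparisons, among 12493 genes in all. Cox4i2, Cox7b2, Cox8b and Ndufa4l2 lay under the array median on all 4 arrays, with highest log2 signals of 5.67, 4.30, 5.32 and 6.12, and are not compared. The 88 genes comprised 6 core subunits, 28 accessory subunits and 8 assembly factors of complex I, all 4 subunits of complex II, 9 genes of complex III, cytochrome c, 15 genes placed with complex IV and 17 genes of ATP synthase. Ndufa4, named for complex I, was placed with complex IV, where its protein was later found. Probe sets that the annotation ties to several symbols numbered 10, and for this reason Ndufa11 and Ndufs6 were not analysed here, and Ndufb4 is represented by a dim probe set.

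The arrays had nearly equal trimmed mean signals, from 496.0 to 496.2, and array medians between 6.17 and 6.28 log2. Alb, which encodes albumin, had log2 signals of 15.02 to 15.27, and 7 of 7 measured hepatocyte markers were above the array median on every array. Cers2, the targeted gene, had log2 signals of 12.32 on the array labelled LASS2-/- HFD, 12.25 on WT HFD, 12.32 on the array labelled LASS2-/- chow and 12.46 on WT chow. Its single probe set was thus not lower on both arrays labelled LASS2-/- (adjusted p = 0.948 for genotype), and the part of the transcript that it reads was not determined. Genotype is used below as the labels give it.

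The promoters of some genes named below are shown first, with the proximal sequence motifs known for this gene system. NRF1, ETS family factors such as GABPA, the estrogen-related receptor ERRA and YY1 are regulators of nuclear genes for mitochondria, and CCAAT is a common promoter element. Sequences are RefSeq windows on GRCm38.p6, 250 bases before to 50 bases after the transcription start, printed 5′ to 3′ on the gene's strand. Capitals mark matches on either strand to GCGCATGCG (NRF1), CCGGAAG (ETS), TCAAGGTCA (ERRA), AAGATGGCG (YY1) and CCAAT. Atp5g1, Atp5g2 and Atp5g3 are shown because these paralogues encode the same mature subunit c of ATP synthase. Atp5g1 had the lowest diet effect of the ATP synthase genes. Atp5g2 and Atp5g3 each had a range over the arrays of 0.21 log2, like the median of the 88 genes that entered. Ndufaf4 and Ndufaf1 are shown because Ndufaf4 had the lowest and Ndufaf1 the highest diet effect of the assembly factors, and Cycs as a gene with little difference between arrays.
Atp5g1 (chr11:96075582-96075881, minus strand): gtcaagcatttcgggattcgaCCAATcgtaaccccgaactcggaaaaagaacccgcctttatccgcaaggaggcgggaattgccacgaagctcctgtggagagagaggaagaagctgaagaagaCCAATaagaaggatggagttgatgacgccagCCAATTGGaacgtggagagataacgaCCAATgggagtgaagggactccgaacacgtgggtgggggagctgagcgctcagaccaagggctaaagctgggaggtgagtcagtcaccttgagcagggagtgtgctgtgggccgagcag
Atp5g2 (chr15:102670998-102671297, minus strand): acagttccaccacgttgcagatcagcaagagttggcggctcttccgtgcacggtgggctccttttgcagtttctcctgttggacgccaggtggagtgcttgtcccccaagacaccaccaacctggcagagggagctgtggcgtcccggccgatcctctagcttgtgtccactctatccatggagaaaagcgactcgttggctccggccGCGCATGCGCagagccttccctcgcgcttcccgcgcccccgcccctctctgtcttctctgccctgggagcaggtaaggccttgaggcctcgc
Atp5g3 (chr2:73911277-73911576, minus strand): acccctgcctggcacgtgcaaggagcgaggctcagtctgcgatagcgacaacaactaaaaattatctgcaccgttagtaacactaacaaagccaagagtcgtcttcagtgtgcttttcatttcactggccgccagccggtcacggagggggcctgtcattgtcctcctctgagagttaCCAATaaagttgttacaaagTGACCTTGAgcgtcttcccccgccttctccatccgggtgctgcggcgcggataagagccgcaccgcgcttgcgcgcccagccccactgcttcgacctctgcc
Ndufaf4 (chr4:24897833-24898132, plus strand): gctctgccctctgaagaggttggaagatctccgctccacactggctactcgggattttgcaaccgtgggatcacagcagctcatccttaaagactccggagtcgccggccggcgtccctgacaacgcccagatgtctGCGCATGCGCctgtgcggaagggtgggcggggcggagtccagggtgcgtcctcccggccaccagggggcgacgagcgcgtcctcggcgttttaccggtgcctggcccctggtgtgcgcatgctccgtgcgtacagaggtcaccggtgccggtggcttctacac
Ndufaf1 (chr2:119662785-119663084, minus strand): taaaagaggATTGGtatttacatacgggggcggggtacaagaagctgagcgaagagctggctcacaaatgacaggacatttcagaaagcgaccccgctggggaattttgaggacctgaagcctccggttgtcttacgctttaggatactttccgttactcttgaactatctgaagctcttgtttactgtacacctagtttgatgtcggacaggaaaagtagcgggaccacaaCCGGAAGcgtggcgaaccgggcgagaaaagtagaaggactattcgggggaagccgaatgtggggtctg
Cycs (chr6:50566520-50566819, minus strand): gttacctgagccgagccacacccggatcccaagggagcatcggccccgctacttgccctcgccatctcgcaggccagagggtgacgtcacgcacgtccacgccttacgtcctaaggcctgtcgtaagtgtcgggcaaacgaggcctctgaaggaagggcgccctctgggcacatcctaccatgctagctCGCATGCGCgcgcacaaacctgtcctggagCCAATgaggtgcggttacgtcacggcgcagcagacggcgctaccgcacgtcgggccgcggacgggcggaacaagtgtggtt

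The Atp5g1 window held 5 CCAAT matches, 2 of them overlapping in CCAATTGG. Those of Atp5g2 and Ndufaf4 each held GCGCATGCGC, a palindrome that matches the NRF1 letters on both strands. The Atp5g3 window held 1 CCAAT and 1 ERRA match, that of Ndufaf1 1 CCAAT and 1 ETS match, and that of Cycs 1 NRF1 and 1 CCAAT match. RefSeq windows were found for 75 of the 92 genes, 80 windows in all. The NRF1 letters were present in 12.5% of these windows, against 1.75% of all 32851 promoter windows of this length. The ETS letters were present in 23.8% against 8.86%, the YY1 letters in 8.75% against 1.40%, the ERRA letters in 2.50% against 0.423%, and CCAAT in 42.5% against 37.4%. A match is a description of letters in the window, and base composition was not matched between these sets.

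The signals of the respiratory chain genes lay close together on the 4 arrays. Between the highest and the lowest array the median gene differed by 0.21 log2, which is 1.16-fold, and in 83 of 88 genes (94.3%) this range was under 1.5-fold. Over all genes the median range was 0.52 log2, or 1.43-fold, and 55.6% were under 1.5-fold. Among the other 1244 genes with a mean log2 signal of at least 12, the level that 73 of the 88 genes reached, the median range was 0.28 log2 and 84.8% were under 1.5-fold. Cycs, the 1 gene of the cytochrome c group, had a range of 0.09 log2, and the smallest range was 0.06, for Ndufa13. Cycs had log2 signals of 14.68 on LASS2-/- HFD, 14.74 on WT HFD, 14.76 on LASS2-/- chow and 14.77 on WT chow. The 5 genes with a wider range were Ndufaf4, at 0.70 log2, and Cox7a1, Cox6a2, Cox6b2 and Ndufb4, whose probe sets were dim.

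The first comparison asked whether LASS2-/- livers differed from wild-type livers on each diet. On high-fat diet, signals were lower on the LASS2-/- than on the WT array in 77 of 88 genes, by a median of 0.11 log2 or 1.08-fold, where 48.5% of all genes were lower and their median was 0.01. On chow, 44 genes were lower and 44 higher, with a median of 0.00, against 48.8% lower and a median of 0.01 over all genes. The other genes with a mean log2 signal of at least 12 had medians of -0.05 on high-fat diet and -0.02 on chow, with 64.2% and 56.1% lower. With quantile normalization 68 of the 88 genes were still lower on high-fat diet, with a median of -0.06. With arrays scaled to equal medians, 77 were lower on high-fat diet and 77 on chow, and this scaling moved the median chow ratio of all genes to -0.10. Relative to the median of all genes, the members' median was -0.12 on high-fat diet and -0.01 on chow as deposited, and -0.06 and -0.01 with quantile normalization. Equal-median scaling shifts all genes of an array alike and so cannot alter these relative values.

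**Figure D1:**
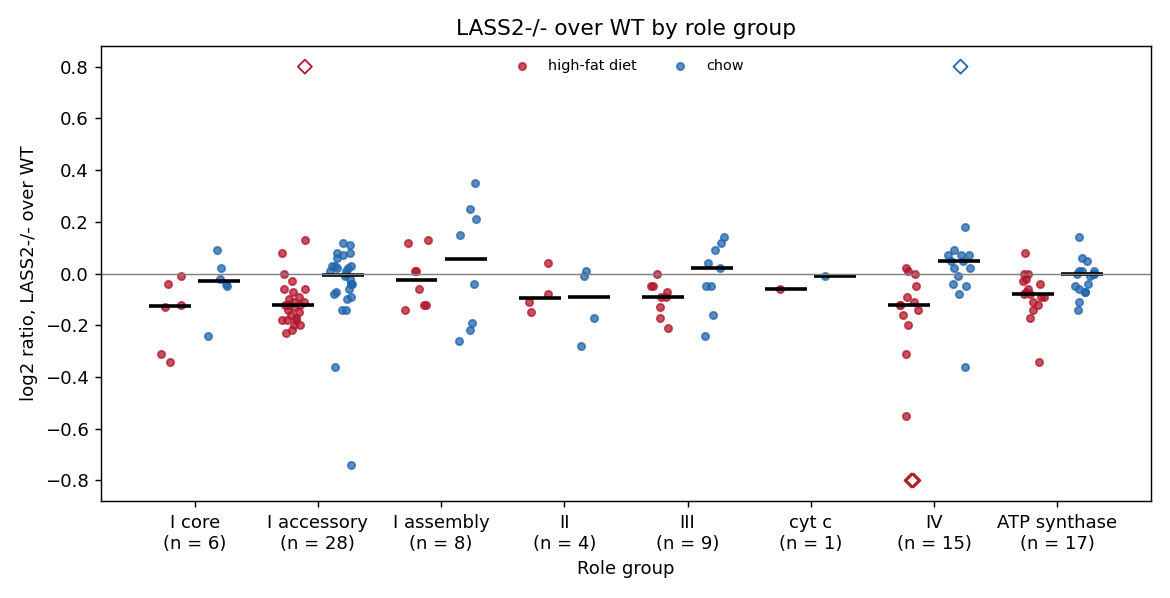
Each point is the log2 ratio of LASS2-/- over WT for 1 gene, on high-fat diet (red, left) and on chow (blue, right), by role group; black bars are group medians and open diamonds mark values beyond 0.8 in size. The high-fat medians lie at -0.12 for complex I core and accessory subunits and complex IV and at -0.09 for complex III, while the chow medians of these groups lie between -0.03 and 0.05.

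No gene of the system passed the test for genotype. This test was an additive limma model of diet and genotype over all genes, whose error comes from how far the genotype ratios on the diets disagree, with Benjamini-Hochberg adjusted p below 0.05 as threshold. It tests the mean genotype effect over both diets, so the genotype ratios on high-fat diet alone were not tested. Of all genes, 0.560% rose and 0.352% fell, and of the 88 genes 0 rose and 0 fell. In limma 3 of the 88 genes had an unadjusted p under 0.05, a share of 3.41%, against 10.4% of all genes. Among the other 1244 genes with a mean log2 signal of at least 12 the share was 16.2%. The 95% interval of the genotype effect lay within 1.5-fold in either direction for 82 of the 88 genes. With 1 array per group this interval does not measure the spread between mice, so it sets no bound on the effect among mice. Both LASS2-/- arrays lay below both WT arrays in 21 of 88 genes, where 13.4% of all genes did, and above them in 1 gene, Ndufaf2, where 14.8% of all genes did. With equal medians the first count was 50, against 18.2% of all genes.

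At least a 1.5-fold ratio was rare in either direction. On high-fat diet 0 genes were higher and 1 lower, against 5.73% and 3.32% of all genes, and on chow 1 was higher and 0 lower, against 5.68% and 3.35%. These were Cox7a1 and Cox6a2, described with complex IV below.

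**Figure D2:**
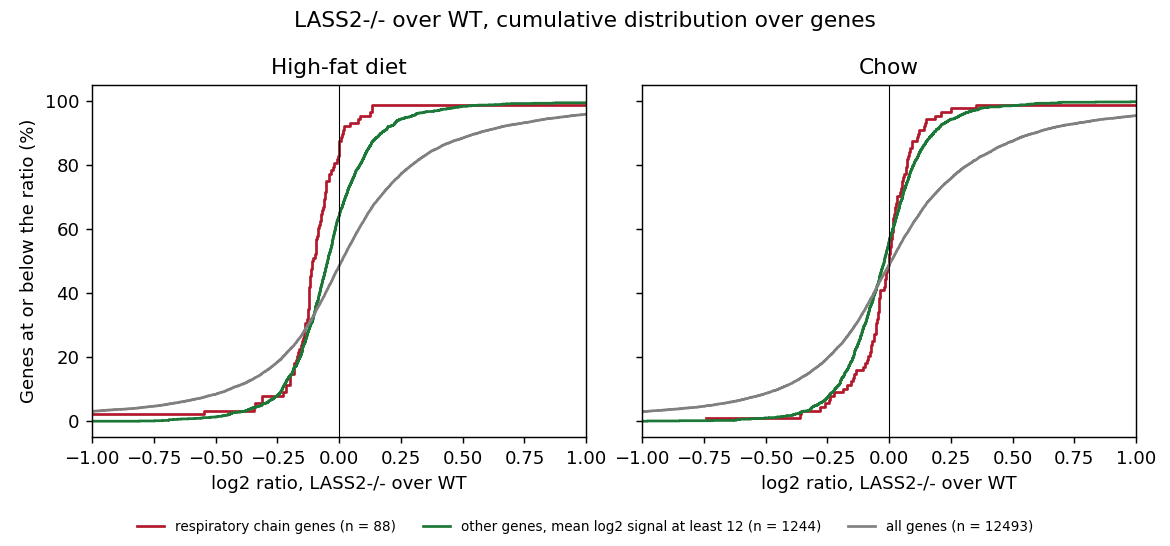
Cumulative share of genes (%) at or below each log2 ratio of LASS2-/- over WT, on high-fat diet (left) and chow (right), for the 88 respiratory chain genes (red), the 1244 other genes with a mean log2 signal of at least 12 (green) and all 12493 genes (grey). On high-fat diet 87.5% of the respiratory chain genes lie below 0 and 64.2% of the other bright genes do, whereas on chow 44 of the 88 lie below 0.

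The second comparison asked how high-fat feeding altered these transcripts in each genotype. In LASS2-/- livers 75 of 88 genes were lower on high-fat diet than on chow, with a median of -0.13 log2, and in wild-type livers 59 were lower, with a median of -0.05. Over all genes the median was 0.02 in both genotypes, with 47.9% and 47.6% lower. The other genes with a mean log2 signal of at least 12 had medians of -0.05 in LASS2-/- and -0.02 in WT. Of these, 57.4% and 54.7% were lower. With quantile normalization 53 and 42 genes were lower, against 47.8% and 47.5% of all genes. With equal medians, which shifts all genes of an array alike, 55 and 64 were lower, against 39.7% and 49.6% of all genes. Relative to the median of all genes, the members' medians were -0.15 in LASS2-/- and -0.07 in WT as deposited, which equal-median scaling cannot alter. They were -0.06 and -0.02 with quantile normalization. At least 1.5-fold changes were 0 higher and 2 lower in LASS2-/-, against 10.1% and 7.20% of all genes, and 1 higher and 0 lower in WT, against 7.71% and 5.11%.

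Over both genotypes 2 of the 88 genes fell with diet in limma, Ndufaf4 and Atp5g1, and 0 rose, where 5.04% of all genes fell and 6.26% rose. In all, 15 of 88 genes (17.0%) had an unadjusted p under 0.05 in limma, against 23.8% of all genes. The share was 44.2% among the other 1244 genes with a mean log2 signal of at least 12. Of these bright genes, 171 fell and 144 rose with diet. The 95% interval of the diet effect lay within 1.5-fold for 77 of the 88 genes, and its median half-width was 0.18 log2. Like that for genotype, it does not measure the spread between mice. Both high-fat arrays lay below both chow arrays in 43 of 88 genes, where 23.3% of all genes did, and above them in 5, where 27.3% did. With quantile normalization the first count was 21, against 23.0% of all genes, and with equal medians 22, against 19.9%.

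**Figure D3:**
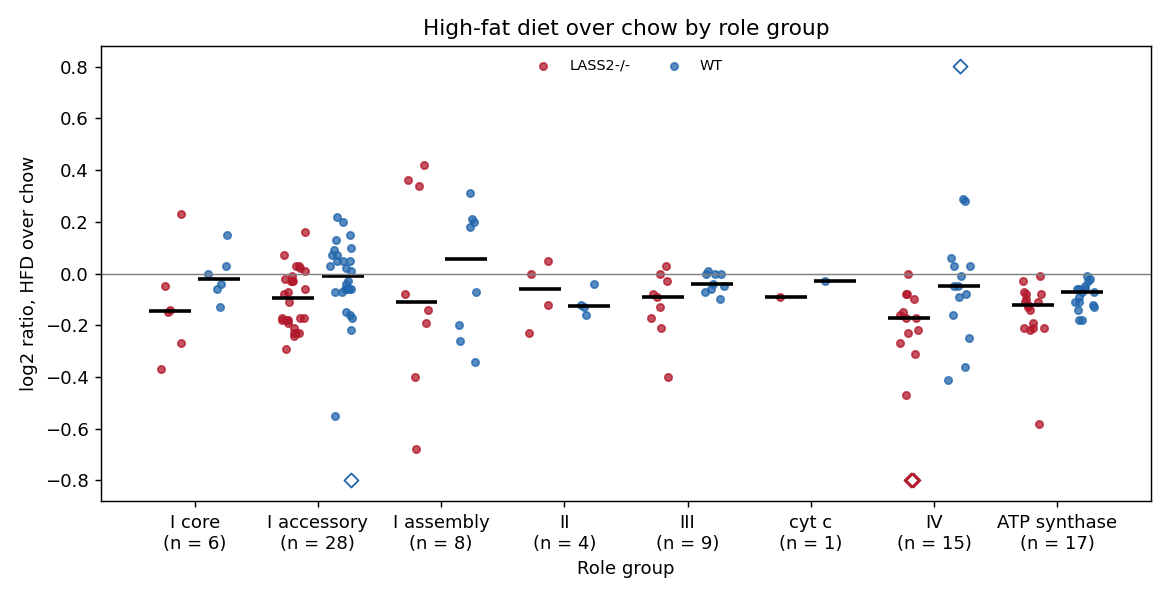
Each point is the log2 ratio of high-fat diet over chow for 1 gene, in LASS2-/- (red, left) and WT (blue, right), by role group; black bars are group medians and open diamonds mark values beyond 0.8 in size. All 17 ATP synthase genes lie below 0 in both genotypes as deposited, and the complex I assembly factors spread from -0.68 to 0.42.

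The LASS2-/- HFD array held the lowest signal of the 4 arrays for 62 of 88 genes (70.5%), against 23.3% of all genes and 37.5% of the other genes with a mean log2 signal of at least 12. This count was 41 with quantile normalization, against 24.0% of all genes, and 46 with equal medians, against 20.4%. The genotype ratio was lower on high-fat diet than on chow in 67 of 88 genes, with a median difference of -0.09 log2, against 49.6% of all genes with a median of 0.00, and 56.5% of the other bright genes with a median of -0.03. It was lower in 56 with quantile normalization, against 49.4% of all genes, and in 42 with equal medians, against 37.6%. Relative to the median of all genes, the members' median difference was -0.10 as deposited, which equal-median scaling cannot alter, and -0.05 with quantile normalization. The difference rests on 1 array per group and was not tested. Other probe sets gave like values: 46 genes had further probe sets above the array median on all arrays, 74 in number, of which 65 were lower on LASS2-/- HFD than on WT HFD, with a median of -0.11.

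Markers of cell types moved between the same arrays. The summed linear signal of 7 hepatocyte markers was 194772 on LASS2-/- HFD, 209300 on WT HFD, 240718 on LASS2-/- chow and 224977 on WT chow. That of 13 macrophage and Kupffer cell markers was 40736 on LASS2-/- HFD, 26652 on WT HFD, 33620 on LASS2-/- chow and 26751 on WT chow. That of 5 measured adipocyte markers was 3731, 2310, 204 and 70 in that order, with Ucp1, Adipoq and Lep under the array median on all 4 arrays. Most of the sum on the high-fat arrays came from 1 gene, Cidea, which encodes a lipid droplet protein and had log2 signals of 11.82 on LASS2-/- HFD, 11.12 on WT HFD, 6.29 on LASS2-/- chow and 4.88 on WT chow. The LASS2-/- HFD array thus had the lowest hepatocyte and the highest macrophage sum. Some single markers went otherwise: Clec4f and Vsig4 were highest on LASS2-/- chow, Timd4 was highest on WT chow, and Ttr was lowest on WT HFD. The part of these cell type signals in the respiratory chain values was not tested, and in bulk tissue fewer cells of a type and less RNA per cell cannot be told apart.

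Complex I has a set of core subunits that carry the flavin and the iron-sulfur clusters. All 6 measured core subunits were lower on LASS2-/- HFD than on WT HFD (median -0.12; 4 of 6 with quantile normalization), and 0 passed for genotype or diet. Ndufs1, the largest iron-sulfur subunit, had log2 signals of 12.20 on LASS2-/- HFD, 12.54 on WT HFD, 12.34 on LASS2-/- chow and 12.39 on WT chow. It was lowest on LASS2-/- HFD and highest on WT HFD, and its mean genotype effect was -0.20 ± 0.10 (SE; adjusted p = 0.547). Ndufs7, which holds the cluster next to ubiquinone, had 12.35 on LASS2-/- HFD, against 12.66 on WT HFD, 12.72 on LASS2-/- chow and 12.70 on WT chow. The LASS2-/- HFD array stood alone, and a second probe set gave a genotype ratio of -0.26 on high-fat diet and 0.02 on chow, beside -0.31 and 0.02. Ndufs8, another iron-sulfur subunit, had 13.57, 13.58, 13.33 and 13.58 in that order, so on this probe set the LASS2-/- chow array was the low one. None of its other probe sets had that array lowest, and the next brightest had 13.35, 13.43, 13.48 and 13.33. Ndufs3, Ndufv1, the flavin-binding subunit, and Ndufv2 had ranges of 0.27, 0.13 and 0.17 log2.

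The accessory subunits surround this core. Of 28, 25 were lower on LASS2-/- HFD than on WT HFD, with a median of -0.12, 14 were lower on chow, and 0 passed for either factor. Ndufa1, a subunit with a single membrane helix, had 14.39 on LASS2-/- HFD, 14.49 on WT HFD, 14.50 on LASS2-/- chow and 14.64 on WT chow. Ndufb7 had 12.76, 12.93, 12.73 and 12.71 in that order, with both high-fat arrays above both chow arrays (diet effect 0.13 ± 0.09, adjusted p = 0.456). Such a separation was seen in 2 of 28 accessory subunits, against 27.3% of all genes. The other Ndufb7 probe set had 11.75, 11.90, 11.89 and 11.92, with diet ratios of -0.14 in LASS2-/- and -0.03 in WT. Ndufs5 had 12.96, 13.17, 12.97 and 13.04, with both LASS2-/- arrays below both WT arrays (genotype effect -0.14 ± 0.09, adjusted p = 0.640). The Ndufb4 probe set had 5.72, 1.25, 5.55 and 6.29 and exceeded its array median on WT chow alone, so its ratios are not interpreted.

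The assembly factors, which act while complex I is built and are absent from the finished complex, had a median range of 0.38 log2, against 0.21 over the 88 genes. Ndufaf4 had log2 signals of 11.22 on LASS2-/- HFD, 11.21 on WT HFD, 11.90 on LASS2-/- chow and 11.55 on WT chow. Both high-fat arrays lay below both chow arrays, and Ndufaf4 fell by 0.51 ± 0.11 log2 with diet (SE, 4 arrays; adjusted p = 0.00828), 1.60-fold in LASS2-/- and 1.27-fold in WT. Its second probe set had 10.81, 10.98, 11.52 and 11.42 on the same arrays, with diet ratios of -0.71 in LASS2-/- and -0.44 in WT. It passed under 7 of 8 alternatives, the exception being the fit without a trend in the variance, where no gene of the array passed.

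Ndufaf1, which acts early in the assembly of the membrane arm, had 10.96 on LASS2-/- HFD, 11.08 on WT HFD, 10.55 on LASS2-/- chow and 10.77 on WT chow. Both high-fat arrays lay above both chow arrays, with a diet effect of 0.36 ± 0.11 log2 and adjusted p = 0.0550, just short of the threshold. It passed with robust moderation (adjusted p = 0.0431) and with the filter at the 25th percentile (adjusted p = 0.0426), and had adjusted p up to 0.370 under the other alternatives. Ndufaf6 had 10.69 and 10.68 on the LASS2-/- and WT high-fat arrays, against 11.09 and 10.94 on the corresponding chow arrays (diet effect -0.33 ± 0.11, adjusted p = 0.0840). Ndufaf3 and Ndufaf7 were higher on both high-fat arrays than on both chow arrays, with diet effects of 0.28 ± 0.14 and 0.27 ± 0.16 (adjusted p = 0.235 and 0.350). Ndufaf8, Ndufaf2 and Ndufaf5 had diet effects of -0.14, -0.10 and -0.01 log2. Thus 3 of 8 assembly factors had both high-fat arrays above both chow arrays, against 27.3% of all genes, and 2 had them below, against 23.3%.

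Complex II, succinate dehydrogenase, also belongs to the citric acid cycle. Sdha, the flavoprotein, had 13.52 on LASS2-/- HFD, 13.48 on WT HFD, 13.64 on LASS2-/- chow and 13.63 on WT chow. Sdhb, the iron-sulfur protein, had 13.86, 13.97, 14.09 and 14.10 in that order (diet effect -0.18 ± 0.08, adjusted p = 0.183). In both, the high-fat arrays were the lower ones, but a second Sdha probe set had 13.44, 13.44, 13.46 and 13.43. On their brightest probe sets the membrane anchors Sdhc and Sdhd were instead lower on both arrays labelled LASS2-/-. Each pattern thus held for 2 of 4 genes, against 23.3% of all genes for diet and 13.4% for genotype. Second probe sets of both anchors were lower on both high-fat arrays than on both chow arrays. They had 9.58, 9.62, 9.73 and 9.88 for Sdhc and 10.71, 10.86, 10.96 and 11.04 for Sdhd. Sdhd had 12.80 on LASS2-/- HFD, against 12.95 on WT HFD, and 12.80 on LASS2-/- chow, against 13.07 on WT chow. Its genotype effect was -0.21 ± 0.09 log2 (unadjusted p = 0.0287 in limma, adjusted p = 0.388), and that of Sdhc was -0.12 ± 0.10 (adjusted p = 0.753).

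Complex III passes electrons from ubiquinol to cytochrome c. Its 9 genes were lower on LASS2-/- HFD than on WT HFD, Uqcr11 by less than 0.01 log2, with a median of -0.09 (8 of 9 with quantile normalization), and 0 passed. Uqcrfs1, the Rieske iron-sulfur protein, had 13.31 on LASS2-/- HFD, against 13.48 on WT HFD, and 13.31 on LASS2-/- chow, against 13.55 on WT chow. This was the lowest unadjusted p of the system for genotype, with an effect of -0.20 ± 0.08 log2 (unadjusted p = 0.0275 in limma, adjusted p = 0.386). Uqcrh, the hinge protein, had 13.40 on LASS2-/- HFD, 13.61 on WT HFD, 13.80 on LASS2-/- chow and 13.66 on WT chow, with the LASS2-/- arrays at either end. Its diet ratio was -0.40 log2 in LASS2-/- and -0.05 in WT. A second Uqcrh probe set had 13.34, 13.49, 13.58 and 13.58, with diet ratios of -0.25 in LASS2-/- and -0.10 in WT. Uqcrb ranged from 15.34 to 15.55 and Uqcrc2, a core protein, from 13.57 to 13.73, and Cyc1, the cytochrome c1 heme protein, ranged from 13.36 on LASS2-/- HFD to 13.55 on WT chow.

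Complex IV, cytochrome c oxidase, has tissue isoforms of several nuclear subunits. The forms used in liver had high signals that varied little. Cox4i1 had 14.36 on LASS2-/- HFD, 14.52 on WT HFD, 14.51 on LASS2-/- chow and 14.46 on WT chow. Cox6a1 had 14.83, 14.95, 15.10 and 15.00 in that order, and Cox7a2 had 14.69, 14.83, 14.91 and 14.84. In these 3 genes the LASS2-/- HFD array was the lowest. A second Cox6a1 probe set was instead lowest on LASS2-/- chow, with 13.79, 13.84, 13.74 and 13.88. Cox6b1 and Cox8a had ranges of 0.09 log2 each. Of the 15 genes that entered, 15 were lower on high-fat diet than on chow in LASS2-/- livers, Cox8a by less than 0.01 log2, and 9 in WT, but with quantile normalization these counts were 11 and 6.

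Cox7a2l, the supercomplex assembly factor related to Cox7a2, separated by diet. It had 12.22 and 12.22 on the LASS2-/- and WT high-fat arrays, against 12.53 and 12.47 on the corresponding chow arrays. The diet effect was -0.28 ± 0.09 log2 (unadjusted p = 0.00855 in limma, adjusted p = 0.0664) and did not pass under any of 8 alternatives. Its 3 probe sets had diet ratios in LASS2-/- of -0.31, -0.32 and -0.24 log2, and in WT of -0.25, -0.25 and -0.29.

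The isoforms known from other tissues had log2 signals of 8.52 or less on every array. Cox6a2 and Cox7a1 are the heart and skeletal muscle forms. Cox7a1 had 7.16 on LASS2-/- HFD, 8.20 on WT HFD, 8.10 on LASS2-/- chow and 7.92 on WT chow, so that LASS2-/- HFD was 2.05-fold lower than WT HFD and 1.92-fold lower than LASS2-/- chow. Cox6a2 had 6.59, 7.14, 6.76 and 5.63, the last under its array median of 6.17. Of 11 muscle and heart markers, 7 were under the median on all 4 arrays, and their summed signal was 345 on LASS2-/- HFD, 433 on WT HFD, 443 on LASS2-/- chow and 463 on WT chow. Cox6b2, a testis form, had 3.75 on LASS2-/- HFD, under the array median, and 6.69, 6.69 and 7.05 on WT HFD, LASS2-/- chow and WT chow. It was at least 1.41-fold lower on LASS2-/- HFD than on WT HFD, and its mean genotype effect did not pass (adjusted p = 0.408). Cox8c, also a testis form, had 8.05 and 8.03 on the LASS2-/- and WT high-fat arrays, against 8.52 and 8.45 on the chow arrays (diet effect -0.44 ± 0.20, adjusted p = 0.196). Cox7c, a ubiquitous subunit, was read here by a dim probe set at 7.72 to 8.03. Ndufa4 had 14.15 on LASS2-/- HFD, 14.27 on WT HFD, 14.31 on LASS2-/- chow and 14.33 on WT chow.

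ATP synthase has a catalytic F1 head and a membrane part whose c-ring turns as protons pass. As deposited, all 17 of its genes were lower on high-fat diet than on chow in both genotypes, with medians of -0.12 log2 in LASS2-/- and -0.07 in WT, and 12 of 17 had both high-fat arrays below both chow arrays, against 23.3% of all genes. With quantile normalization 7 of 17 were lower in both genotypes, and with equal medians 12 of 17. The catalytic subunit gene Atp5b had 14.39 on LASS2-/- HFD, 14.47 on WT HFD, 14.46 on LASS2-/- chow and 14.56 on WT chow, and Atp5a1, its partner in the head, ranged from 13.76 to 13.85. Atp5d, of the central stalk, had 13.74, 13.78, 13.76 and 13.83 on the same arrays.

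The c-ring genes, whose promoters are shown above, differed in size of change. Atp5g1 had log2 signals of 12.85 on LASS2-/- HFD, 13.20 on WT HFD, 13.44 on LASS2-/- chow and 13.38 on WT chow. The high-fat arrays lay below the chow arrays and the LASS2-/- HFD array lowest, with diet ratios of -0.58 in LASS2-/- and -0.18 in WT. Atp5g1 fell by 0.38 ± 0.10 log2 with diet (95% interval -0.59 to -0.17, adjusted p = 0.0242). The call was lost with quantile normalization (adjusted p = 0.0573), equal medians (0.0582), no filter on signal (0.0621) and no trend (0.429). Atp5g2 had 12.55, 12.69, 12.76 and 12.75 in that order, and Atp5g3 had 14.76, 14.77, 14.97 and 14.83. Each had diet ratios of -0.21 in LASS2-/- and -0.06 in WT and a mean diet effect of -0.14 log2 that did not pass (adjusted p = 0.407 and 0.306). Whether the diet effect differed between the paralogues was not tested. The other probe set of Atp5g1 was under the array median on 3 of 4 arrays.

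**Figure D4:**
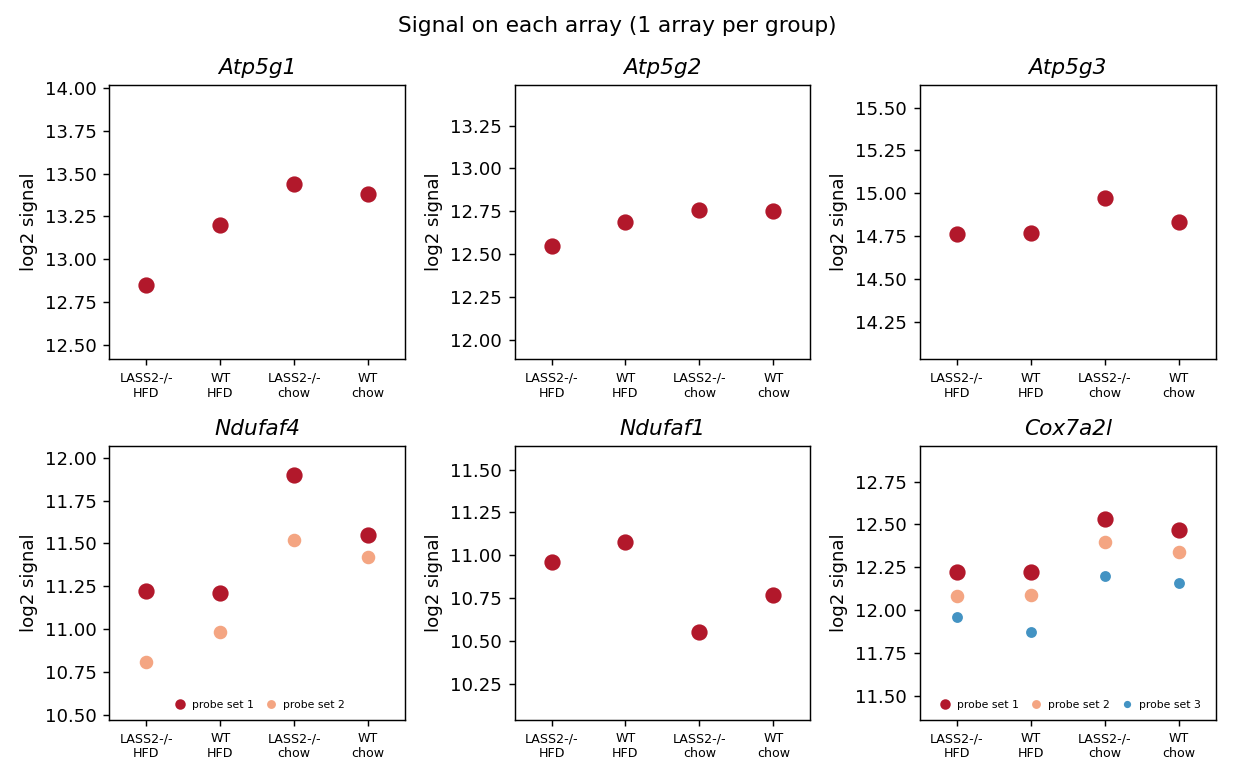
Log2 signal on each of the 4 arrays (1 per group) for Atp5g1, Atp5g2, Atp5g3, Ndufaf4, Ndufaf1 and Cox7a2l; each panel spans the same log2 distance, and further colours are other probe sets of the same gene. Atp5g1, Ndufaf4 and Cox7a2l lie lower on both high-fat arrays, whereas Ndufaf1 lies higher on both.

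The wider programme of mitochondrial genes was read from lists chosen with earlier results of these data known. Of 24 measured regulators of mitochondrial biogenesis, 3 rose and 2 fell with diet, where 6.26% of all genes rose and 5.04% fell, and 0 passed for genotype, with 3 at an unadjusted p under 0.05 in limma, against 10.4% of all genes. Ppargc1a, the coactivator PGC-1alpha, had 9.48 on LASS2-/- HFD, against 10.18 on LASS2-/- chow, and 9.94 on WT HFD, against 10.56 on WT chow. It fell by 0.66 ± 0.13 log2 with diet (adjusted p = 0.00418), and its genotype effect of -0.42 ± 0.13 did not pass (adjusted p = 0.203). Pprc1, a related coactivator, fell by 0.73 ± 0.18 (adjusted p = 0.0206), but did not pass with equal medians (adjusted p = 0.0544) or without trend (0.322). Ppara, the fatty acid receptor, rose by 0.39 ± 0.09 (adjusted p = 0.0133) and Mterf2, a mitochondrial transcription factor, by 1.62 ± 0.31 (adjusted p = 0.00363). Tfb1m, a mitochondrial ribosomal RNA methyltransferase named after its values were seen, rose by 0.63 ± 0.19 (adjusted p = 0.0436), but it did not pass under 7 of 8 alternatives, and its effect was -0.10 when probe sets ending in _x_at or _s_at were left out. Tfam, which packages mitochondrial DNA and was named in the same way, ranged from 11.21 to 11.36.

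Of 39 further assembly factors of the complexes, 1 rose and 0 fell with diet, against the same 6.26% and 5.04% of all genes. For genotype 0 passed, and 2 (5.13%) had an unadjusted p under 0.05 in limma, against 10.4% of all genes. The gene that rose was Nubpl, an iron-sulfur protein for complex I, at 0.44 ± 0.13 log2 (adjusted p = 0.0492). It did not pass under 5 of 8 alternatives, with adjusted p from 0.0619 to 0.370. Of 20 genes of the citric acid cycle and pyruvate oxidation, 2 rose and 1 fell with diet, against 6.26% and 5.04% of all genes, and 0 passed for genotype, with 1 at an unadjusted p under 0.05 in limma. Cs, citrate synthase, had 11.89 on LASS2-/- HFD, against 10.84 on LASS2-/- chow, and 11.67 on WT HFD, against 11.01 on WT chow, and rose by 0.85 ± 0.12 (adjusted p = 0.000234). Idh2, the mitochondrial NADP-dependent isocitrate dehydrogenase, rose by 0.45 ± 0.11 (adjusted p = 0.0192), and Fh1, fumarase, fell by 0.45 ± 0.08 (adjusted p = 0.00178). These 3 genes passed under every alternative except the fit without trend.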

How the data were processed

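Liver RNA of 4 groups was measured on 1 Affymetrix 3' array each. The deposited values are log2 signals made with MAS5, per the submitters' processing notes. The version and the scaling target were not given in the sources used here. Of 45037 probe sets, 34945 had 1 symbol in the platform annotation, 932 had several and 9160 none listed. Probe sets reaching the array median on at least 1 array were kept, and the one with the highest mean stood for a gene. Ratios with an array under its median are given as bounds. Single ratios have no test. Mean effects of diet and genotype came from an additive limma 3.58.1 fit (R 4.3.3) with trend, with 1 residual degree of freedom and 12.7 from genes of like signal. Errors after ± are its moderated standard errors and mostly reflect those other genes. The fit was tested on simulated data. Benjamini-Hochberg adjustment covered 12493 genes. Promoter letters were searched in Python 3.11.15. Alternatives numbered 8. The members and lists were chosen with earlier results of these data known. Named genes were the targeted gene, members passing the test, the extremes of each role group, paralogue families, members past 1.5-fold the same way in 2 ratios without a common array (there were 0), and up to 4 passing genes per list. Ndufv1, Ndufv2, Ndufaf2, Ndufaf3, Ndufaf5, Ndufaf6, Ndufaf7, Cyc1, Cox7c, Atp5a1, Atp5b, Tfb1m and Tfam lie outside this rule and were named after their values were seen, as was the log2 limit of 12 chosen. The number of arrays limits the precision.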

Additional observations from a re-analysis of the deposited data

Results flagged for a closer look

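Cox6a2, the heart and muscle form of a cytochrome c oxidase subunit, had genotype ratios in opposite directions on the diets: -0.55 log2 on high-fat diet and 0.59 on chow. With arrays under their median raised to it, the chow value is a lower bound. The difference was not tested, since each ratio rests on 1 array per group, and the probe set lay within 1 log2 of its array median on all 4 arrays.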

How the results depend on the processing

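No paired analysis was possible because each group has 1 array. Among the counts of respiratory chain genes, those for genotype stayed at 0 in both directions under all 8 alternatives. Over all genes the genotype calls were 70 higher and 44 lower as reported, and 14 and 9 with quantile normalization. They were 11 and 11 with equal medians, 0 and 0 without trend, and most with the filter at the 25th percentile, 105 and 65. With calls this rare over all genes, counts of 0 among 88 genes say little about stability. The count that fell with diet, 2 as reported, was 1 with quantile normalization, 1 with equal medians, 1 with no filter, 4 with the mean of all probe sets (Cox8a and Cox8c in addition) and 0 without trend. Over all genes 630 fell as reported, and 487, 358, 495, 473 and 0 in that order. The means of Cox8a and Cox8c each included a probe set under the array median on both high-fat arrays. These probe sets had mean diet ratios of -1.81 and -3.29 log2, against -0.04 and -0.44 for the brightest ones. The count that rose, 0 as reported, was 1 with the filter at the 25th percentile and 1 with robust moderation. Over all genes 782 rose as reported, and 827 and 712 in those settings. The median ratio of HFD over chow in LASS2-/- moved to -0.04 with quantile normalization and -0.05 with equal medians, and that of LASS2-/- over WT on chow to -0.10 with equal medians. Tfb1m had a diet effect of -0.10 without _x_at and _s_at probe sets, which leave another probe set to stand for it. The cause of the other changes was not tested. Leaving out an array leaves no residual degree of freedom. All counts across settings concern calls, not which genes made them, beyond the genes named. Signals near the array median limit what the dim isoforms can show.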

Other observations

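Other genes around the respiratory chain gave the following values. Of 15 measured genes for membrane carriers, channels and other proteins of electron, nucleotide and proton transfer, 3 rose and 0 fell with diet. Of all genes 6.26% rose and 5.04% fell. The 3 were Gpd2, Nnt and Atpif1, and no measured Slc25 carrier, Ucp3 or Vdac gene of this list passed. Gpd2, the mitochondrial glycerol-3-phosphate dehydrogenase, had 11.12 on LASS2-/- HFD, against 10.62 on LASS2-/- chow, and 11.43 on WT HFD, against 10.97 on WT chow, and rose by 0.48 ± 0.11 log2 in limma (adjusted p = 0.0106). Its genotype ratios were -0.31 on high-fat diet and -0.35 on chow and did not pass (adjusted p = 0.244). Nnt, the NAD(P) transhydrogenase of the inner membrane, rose by 0.42 ± 0.09 with diet (adjusted p = 0.00938), and with the mean of all probe sets its effect was 0.12 (adjusted p = 0.622). Atpif1, the inhibitor of ATP synthase, rose by 0.44 ± 0.13 (adjusted p = 0.0359), and with the mean of all probe sets its effect was 0.14 (adjusted p = 0.722). It also did not pass with quantile normalization (adjusted p = 0.0655), with equal medians (0.0922) or without trend (0.374).

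Of 12 measured genes of coenzyme Q synthesis, which makes the ubiquinone between complexes I and III, 1 rose and 1 fell with diet, where 6.26% of all genes rose and 5.04% fell. Coq10b, a ubiquinone-binding protein, fell by 0.82 ± 0.10 log2 (adjusted p = 9.92e-05), with 11.23 and 11.12 on the LASS2-/- and WT high-fat arrays, against 12.00 and 11.99 on the chow arrays. Pdss2, which helps to make the ubiquinone tail, rose by 0.62 ± 0.18 (adjusted p = 0.0427) and did not pass under 4 of 8 alternatives. Of 54 genes of the mitochondrial ribosome and translation, 0 passed limma for diet or genotype. Of all genes 6.26% rose and 5.04% fell with diet, and 0.560% and 0.352% with genotype. Of the 54 genes, 6 (11.1%) for diet and 1 (1.85%) for genotype had an unadjusted p under 0.05 in limma, against 23.8% and 10.4% of all genes. The median diet ratios of the 54 genes were 0.07 log2 in LASS2-/- and 0.04 in WT. The median genotype ratios were -0.03 on high-fat diet and -0.05 on chow.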
